A study of Arabidopsis thaliana with 9 samples.

Results

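Green 2cpab seedlings, Arabidopsis thaliana mutants that had still turned green, were compared with wild-type seedlings gene by gene. The comparison used 6 of the 9 RNA sequencing libraries of the study, 3 of green 2cpab and 3 of the wild type, taken by their labels, and every gene with a scaled FPKM (reads per transcript length and library size, rescaled by the authors) of at least 1 in 3 or more of the 9 libraries. That left 19731 of the 32833 genes in the deposited table. The other 3 libraries came from albino seedlings of the same genotype. They entered the filter, the estimate of the spread and the correlations over the 9 libraries. Otherwise they are named below for direct tests between albino and green mutants, for means of single genes and for medians of the chaperone lists. They are also named for correlations with green libraries and where 1 of them was left out.

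The name 2cpab stands for mutations in the genes 2CPA and 2CPB, which encode the 2-Cys peroxiredoxins, thiol enzymes of the chloroplast that reduce hydrogen peroxide. The series title places these enzymes beside cpHSP70, a chloroplast chaperone, in the making of chloroplasts in seedlings. Green 2cpab carried the 2cpab genotype, and the wild type was Col-0. Both groups, like the albino one, were whole seedlings kept for 6 days on MS medium with 0.5% sucrose in unbroken light (125 µE m-2 s-1), with no other agent. The mutant alleles are not given in the sources used here, and neither is the number of seedlings per library.

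Plant cells answer unfolded proteins through heat-shock transcription factors, which bind repeats of a short palindromic element and raise chaperone genes, in heat and in other stresses that damage proteins. Iron has its own circuit: when it is short, a small family of bHLH factors rises and ferritins, which store iron mostly in plastids, fall. Jasmonate, a lipid hormone whose first steps take place in plastids, drives wound and herbivore responses and raises genes for its own synthesis, repression and breakdown.

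All levels below are scaled FPKM. Where 3 values are given, they are those of replicates 1, 2 and 3 in that order. Fold changes are differences of group means of log2(scaled FPKM + 1), green 2cpab minus wild type, with the standard error of the limma fit, and they understate the change of weakly expressed genes. A gene was called at a Benjamini-Hochberg adjusted p under 0.05. The labels do not say that replicates were separate cultures, so p-values measure only how far these samples spread, which may be technical in origin. A lower level in whole seedlings can come from fewer cells of a type or from less RNA per cell, and these cannot be told apart here. All 6 libraries had a 75th percentile of 3.70 on the log2 scale and 22926 to 23703 genes above 0. The depth in reads is unknown.

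RNA of both targeted genes was present in every green library and below every wild-type library. 2CPA (AT3G11630, chromosome 3, 3672036 to 3674159, plus strand) stood at 35.8, 267 and 256 in green 2cpab, against 989, 763 and 889.7 in the wild type (log2 fold change -2.68 ± 0.62, adjusted p = 0.0259). 2CPB (AT5G06290, chromosome 5, 1919080 to 1921425, plus strand) stood at 7.21, 48.7 and 54.2 in green 2cpab, against 237, 174 and 188 in the wild type (log2 fold change -2.82 ± 0.60, adjusted p = 0.0179). In green replicate 1 both were far below green replicates 2 and 3. For 2CPA the call held in 14 of 20 alternatives (highest adjusted p 0.0749), being lost under the fit with no filter, the fit on the 6 libraries alone and the robust fit and without wild-type replicate 1, 2 or 3. For 2CPB the call held in 17 of 20 alternatives (highest adjusted p 0.0540), being lost under the fit on the 6 libraries alone and without wild-type replicate 1 or 3. Means in albino libraries were 23.6 ± 2.03 for 2CPA and 2.08 ± 0.716 for 2CPB (SD, n = 3). The direct limma differences, albino minus green, were -2.47 (adjusted p = 0.0115) and -3.22 (adjusted p = 0.00231) on the log2 scale.

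The genes that follow each targeted gene also differed. AT3G11640, an uncharacterized protein-coding gene that begins 122 bases past the end of 2CPA on the same strand (3674282 to 3675262), had 6.88, 6.91 and 6.18 in green 2cpab, against 0.476, 0.559 and 0.337 in the wild type (log2 fold change 2.39 ± 0.15, adjusted p = 1.40e-04). The groups were far apart and the 3 green libraries close together, unlike those of 2CPA. Its mean in albino libraries was 4.42 ± 1.15 (SD, n = 3), and the direct difference, albino minus green, was -0.52 (adjusted p = 0.0224) on the log2 scale. LOG7, for an enzyme that activates cytokinins, lies 122 bases past the end of 2CPB on the opposite strand (1921548 to 1925407) and had 9.92, 10 and 10.7 in green 2cpab, against 14.3, 19.0 and 16.2 in the wild type (log2 fold change -0.63 ± 0.11, adjusted p = 0.00649). Reads of a stranded library kit can be assigned to strands, but whether the authors' counting used them is not given in the sources used here. NHL2, the second gene past the end of 2CPA (chromosome 3, 3675953 to 3677279, minus strand), rose to 22.2, 24.4 and 21.9 in green 2cpab, against 17.5, 15.9 and 16.3 in the wild type (log2 fold change 0.44 ± 0.11, adjusted p = 0.0398); the call held in 9 of 20 alternatives (highest adjusted p 0.125), being lost under the fit with no filter, the TPM-like scaling, the median-of-ratios scaling and the replicate block and without wild-type replicate 1, 2 or 3, green replicate 1, 2 or 3 or albino replicate 1. The other tested genes among the 5 on each side of both loci were not called.

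A long non-coding RNA on chromosome 3 followed 2CPA across libraries. AT3G05945 (11510090 to 11510510, minus strand) had 1.49, 8.94 and 7.57 in green 2cpab, against 36.1, 30.4 and 31.1 in the wild type (log2 fold change -2.49 ± 0.43, adjusted p = 0.00688). Green replicate 1 was again the lowest, and the albino mean was 0.527 ± 0.300 (SD, n = 3). The genes nearest to 2CPA were sought by Pearson correlation over the 9 libraries. AT3G05945 had 0.992, 2CPB 0.992 and MEKK1, a kinase of the immune MAP kinase cascade, 0.993. These correlations describe 9 points in 3 groups, with library and normalization shared by all genes. A search with blastn found 0 alignments between AT3G05945 and the sequences of either peroxiredoxin gene.

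Across the genome, 733 genes were called higher in green 2cpab (3.71% of those tested) and 1018 lower (5.16%), 8.87% in all. Of these, 266 higher genes (1.35%) and 225 lower genes (1.14%) were also past 1 on the log2 scale, a 2-fold change. The median called rise was 0.81 and the median called fall -0.73, while the median over all genes tested was 0.02. In 731 of the genes called higher and 1017 of those called lower, green and wild-type libraries did not overlap, which was true of 23.8% of all genes tested. Nearly all called genes thus had separate groups, so where this is said of a called gene below it adds no further support. Fewer genes were called in the fit on the 6 libraries alone (431 higher, 640 lower), without wild-type replicate 3 (424 and 606) and without green replicate 2 (449 and 658). Between albino and green mutants, 36.1% of genes were called, 18.5% higher and 17.7% lower in albino libraries.

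**Figure D1:**
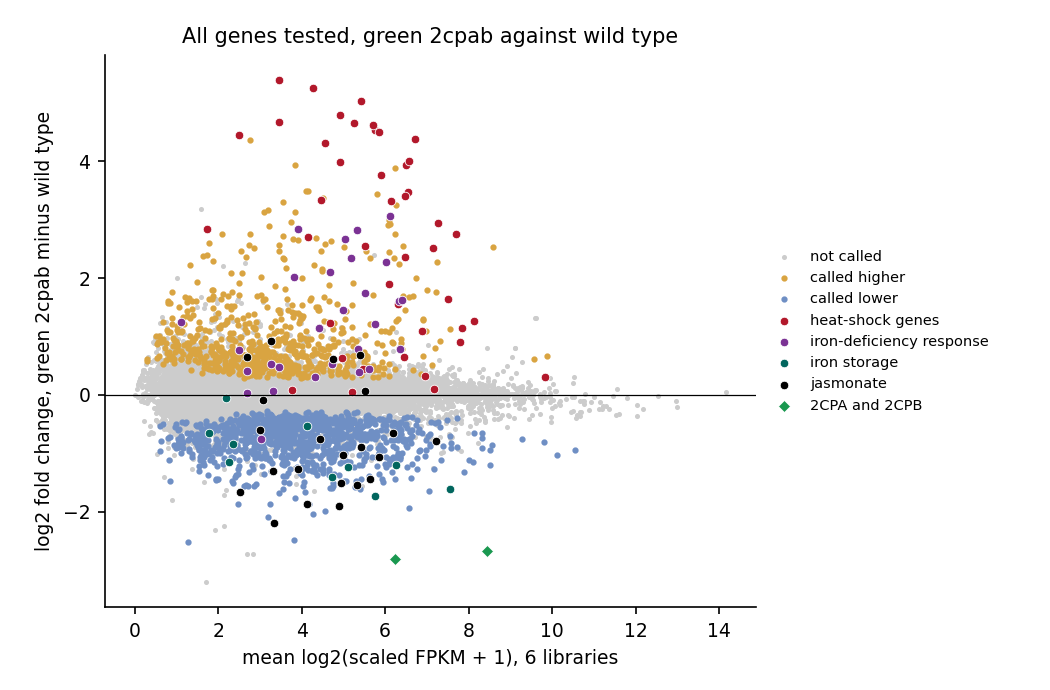
Log2 fold change of every gene tested (y axis, green 2cpab minus wild type) against its mean level over the 6 libraries (x axis, log2(scaled FPKM + 1)), 1 point per gene. Heat-shock genes reach the top, up to 5.39, iron-deficiency genes lie mostly above 0, up to 3.07, ferritins lie below 0, and 17 of 22 jasmonate genes do.

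The largest rises belonged to heat-shock genes, and the sequences before some of them carry the binding element of heat-shock factors. The element was searched as 2 units, GAANNTTC or TTCNNGAA, and as 3 units, where GAANNTTC is followed by NNGAA or TTCNNGAA by NNTTC. Both strands of the 250 bases before each gene start in the RefSeq TAIR10.1 annotation were read. A 3-unit match contains overlapping 2-unit matches. The 3-unit form stood in 16 of 728 windows of genes called higher (2.20%), in 3 of 1018 windows of genes called lower (0.295%) and in 87 of 19623 windows of all genes tested (0.443%). Among genes called higher by more than 2 on the log2 scale it stood in 7 of 92 windows (7.61%). The 2-unit form was more common, in 18.4% of windows of genes called higher, 16.4% of those called lower and 15.8% of all. Most windows of the heat lists lacked the 3-unit form. It stood in 2 of 16 small heat-shock protein, 2 of 16 co-chaperone and partner and 3 of 19 heat-shock factor windows. In the 11 windows of cytosolic HSP70, HSP90 and HSP101 genes there were 0 matches of either form. A match describes letters in a window and is not a measured binding site.

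The stretches holding the matches are shown for those 7 genes, because they hold the 3-unit element before strongly raised genes. They are written 5′ to 3′ on the gene's own strand, with each match in capitals. HSP17.4 and AT1G53540 encode small heat-shock proteins of the HSP20 type, AT1G71000 a DnaJ-domain co-chaperone, GOLS1 the galactinol synthase of heat responses, and HSFA2, HSFA7A and HSFA7B are heat-shock factors themselves. In TAIR10.1 the stretches lie at chr1:19980236-19980268 on the plus strand (AT1G53540), chr3:16984868-16984976 on the minus strand (HSP17.4), chr1:26770239-26770318 on the minus strand (AT1G71000), chr2:11135526-11135608 on the plus strand (HSFA2), chr2:19370556-19370588 on the minus strand (GOLS1), chr3:23399069-23399151 on the plus strand (HSFA7B) and chr3:19264939-19265021 on the plus strand (HSFA7A).
AT1G53540: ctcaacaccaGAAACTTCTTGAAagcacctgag
HSP17.4: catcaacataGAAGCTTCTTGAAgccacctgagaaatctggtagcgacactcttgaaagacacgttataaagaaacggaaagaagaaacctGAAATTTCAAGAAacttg
AT1G71000: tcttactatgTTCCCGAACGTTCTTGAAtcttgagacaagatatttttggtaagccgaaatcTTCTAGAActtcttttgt
HSFA2: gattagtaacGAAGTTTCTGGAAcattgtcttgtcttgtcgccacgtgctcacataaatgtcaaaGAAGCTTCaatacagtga
GOLS1: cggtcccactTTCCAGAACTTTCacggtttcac
HSFA7B: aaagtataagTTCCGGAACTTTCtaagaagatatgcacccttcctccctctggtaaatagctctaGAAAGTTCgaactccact
HSFA7A: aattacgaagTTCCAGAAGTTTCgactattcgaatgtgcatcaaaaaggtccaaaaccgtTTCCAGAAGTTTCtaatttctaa

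Small heat-shock proteins, which hold unfolding proteins in solution, had the highest median of the 24 lists. Of 16 tested, 14 were called higher (3.71% of all genes were) and 0 lower, with a median log2 fold change of 4.52, and the count was the same in all 20 alternatives with at least 2 libraries per group. ATHSP22.0, of the endoplasmic reticulum, gave the largest rise, at 33.0, 94.8 and 112 in green 2cpab, against 0.397, 0.640 and 1.19 in the wild type (log2 fold change 5.39 ± 0.60, adjusted p = 9.36e-04). AT5G37670, an HSP20-like chaperone, had 78.1, 112 and 186 in green 2cpab, against 1.61, 1.90 and 2.93 in the wild type (log2 fold change 5.26 ± 0.58, adjusted p = 9.01e-04). AT1G53540, shown above, reached 117, 360.2 and 347 in green 2cpab, against 3.83, 7.79 and 8.73 in the wild type (log2 fold change 5.04 ± 0.73, adjusted p = 0.00318). In each of these genes the lowest green library was replicate 1, which still stood well above all wild-type libraries. HSP21 of plastids had 11.6, 34.2 and 40.4 in green 2cpab, against 0.104, 0.237 and 0.286 in the wild type (log2 fold change 4.45 ± 0.44, adjusted p = 6.51e-04). HSP23.6-MITO of mitochondria had 83.2, 207 and 237 in green 2cpab, against 2.30, 5.95 and 7.43 in the wild type (log2 fold change 4.80 ± 0.57, adjusted p = 0.00125). Plastid, mitochondrial and endoplasmic members were thus among those called. Of the HSP20-like chaperones, AT4G21870 (log2 fold change 0.32 ± 0.22, adjusted p = 0.458) and AT5G54660 (log2 fold change 0.08 ± 0.14, adjusted p = 0.791) were not called. Cytosolic members are close paralogs, and how reads shared between them were divided is not given in the sources used here.

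The larger chaperones also rose, with a lower median, and the constitutive HSC70-1 was not called. Of 11 tested HSP70, HSP90 and HSP101 genes of the cytosol, 10 were called higher (3.71% of all genes were), with a median log2 fold change of 1.65. HSP70B was at 52.6, 149 and 147 in green 2cpab, against 3.15, 4.58 and 5.55 in the wild type (log2 fold change 4.31 ± 0.45, adjusted p = 7.64e-04). HSP101, the disaggregase that plants need to survive heat, was at 171, 383 and 445 in green 2cpab, against 19.6, 28.6 and 34.5 in the wild type (log2 fold change 3.47 ± 0.51, adjusted p = 0.00331). HSC70-1, the abundant constitutive HSP70, was at 848, 1208 and 1018 in green 2cpab, against 712, 965 and 799 in the wild type (log2 fold change 0.31 ± 0.17, adjusted p = 0.326). Its green and wild-type ranges overlapped. Of 16 co-chaperones and heat-response partners, 13 were called higher (81.2%, against 3.71% of all genes), with a median of 2.13. The co-chaperone BAG6 had 115, 287 and 316 in green 2cpab, against 9.87, 16.7 and 20.7 in the wild type (log2 fold change 3.77 ± 0.49, adjusted p = 0.00182). The DnaJ gene AT1G71000, listed at 0 in 1 wild-type library, had 19.3, 28.9 and 47.6 in green 2cpab, against 0, 0.633 and 1.03 in the wild type (log2 fold change 4.37 ± 0.41, adjusted p = 6.51e-04). GOLS1 was at 39.6, 89.5 and 93.2 in green 2cpab, against 5.16, 6.81 and 5.93 in the wild type (log2 fold change 3.34 ± 0.32, adjusted p = 6.51e-04). The groups did not overlap in any of these 3 genes.

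The heat-shock factors gave calls in both directions. Of 19 tested, 5 were called higher (26.3%, against 3.71% of all genes) and 1 lower (5.26%, against 5.16%), with a median of 0.11. HSFA2, the factor that sustains the heat response, had 178, 325 and 418 in green 2cpab, against 12.7, 21.0 and 24.4 in the wild type (log2 fold change 3.88 ± 0.72, adjusted p = 0.00966). HSFA7A had 125, 185 and 226 in green 2cpab, against 27.6, 44.7 and 37.5 in the wild type (log2 fold change 2.24 ± 0.41, adjusted p = 0.00909). HSFA7B had 13.4, 31.5 and 36.2 in green 2cpab, against 1.39, 6.30 and 4.84 in the wild type (log2 fold change 2.47 ± 0.55, adjusted p = 0.0221). In all 3 of these class A factors every green library lay above every wild-type library. For HSFA7B the call held in 14 of 20 alternatives (highest adjusted p 0.0853), being lost under the pseudocount of 0.1 and the fit with no filter and without wild-type replicate 1 or 3 or green replicate 2 or 3. The repressor-type HSFB1 had 98.8, 163 and 191 in green 2cpab, against 53.1, 48.9 and 55.4 in the wild type (log2 fold change 1.46 ± 0.25, adjusted p = 0.00591). HSFB2B had 28.3, 41.3 and 50.5 in green 2cpab, against 15.8, 18.6 and 18 in the wild type (log2 fold change 1.12 ± 0.22, adjusted p = 0.0127). The master regulators of class A1, which exist before stress and are switched on as proteins, were not called. Their log2 fold changes were -0.08 for HSFA1A, -0.10 for HSFA1B, 0.02 for HSFA1D and 0.21 for HSFA1E. HSFC1 was lower, at 13.3, 7.51 and 11 in green 2cpab, against 27.5, 22.8 and 19.2 in the wild type (log2 fold change -1.08 ± 0.27, adjusted p = 0.0372), and the call held in 11 of 20 alternatives (highest adjusted p 0.125), being lost under the fit with no filter, the TPM-like scaling and the replicate block and without wild-type replicate 1, 2 or 3, green replicate 2 or 3 or albino replicate 2. The number of factors called lower was 0 without wild-type replicate 1, wild-type replicate 3, green replicate 2 or albino replicate 2, and 2 without green replicate 3. DREB2A, a drought and heat factor that acts above HSFA3, stood at 116, 136 and 142 in green 2cpab, against 32.3, 42 and 29.8 in the wild type (log2 fold change 1.90 ± 0.46, adjusted p = 0.0306), and the call held in 13 of 20 alternatives (highest adjusted p 0.0973), being lost under the fit with no filter and the robust fit and without wild-type replicate 1 or 3 or green replicate 1, 2 or 3.

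**Figure D2:**
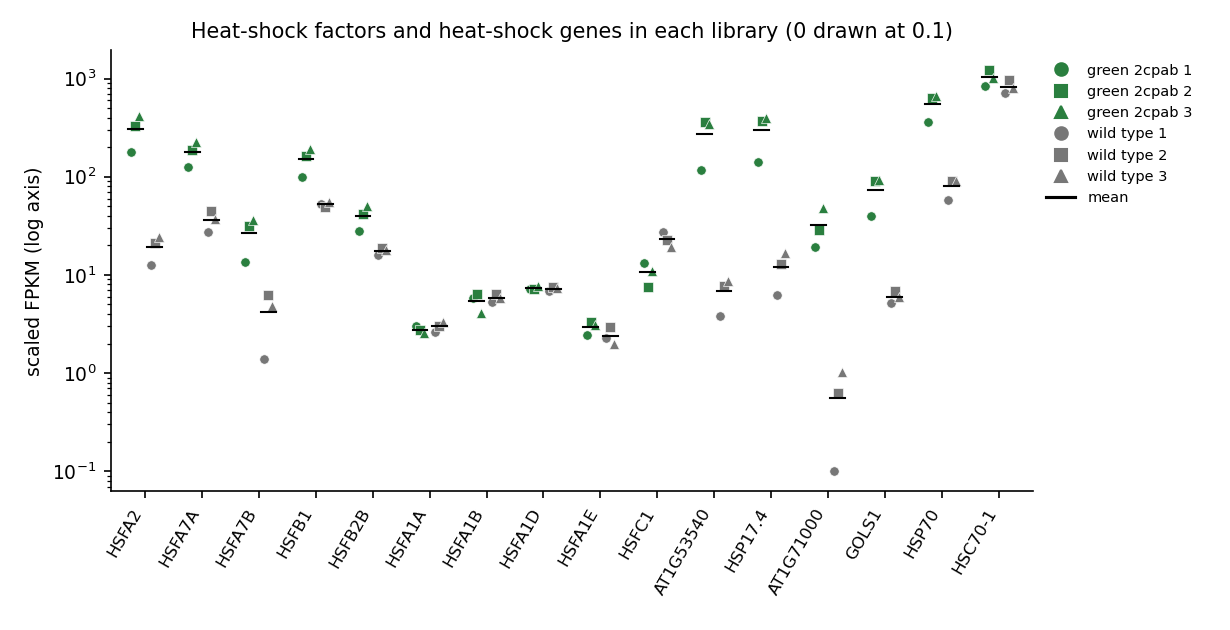
Scaled FPKM (y axis, log scale) of heat-shock factors and heat-shock genes in each library, with marker shape for the replicate and a line for the mean of each group, green 2cpab left of the wild type. HSFA2, HSFA7A, HSFB1 and the chaperones stand apart between groups, for example HSFA2 at 178 to 418 in green 2cpab and 12.7 to 24.4 in the wild type, while the class A1 factors overlap.

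In the 3 chaperone lists green replicate 1 had the lowest median of the green libraries. It was lowest in 16 of 16 small heat-shock genes, 11 of 11 larger chaperones and 15 of 16 partners, against 32.7% of all genes tested. Medians of the log2 distance from the wild-type mean were 3.66, 4.90 and 5.10 for the small heat-shock proteins, 1.19, 1.86 and 1.89 for the larger chaperones and 1.47, 2.30 and 2.40 for the partners, in green replicates 1 to 3. Wild-type replicate 1 had the lowest of the wild-type medians in the same lists, at -0.51, -0.28 and -0.23. Summed levels of the small heat-shock list were 1904, 4047 and 4766 in green 2cpab libraries, against 201, 287 and 342 in wild-type libraries. Albino libraries lay below green ones: of the same lists 15 of 16, 9 of 11 and 13 of 16 genes were called lower in albino than in green seedlings, against the 17.7% of all genes. Small heat-shock medians from the wild-type mean were 0.05, -0.03 and 1.92 in albino replicates 1 to 3. Those of the larger chaperones were -0.14, -0.21 and 0.43, and those of the partners -0.29, -0.27 and 0.10.

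The endoplasmic reticulum has its own unfolded protein response. Of 20 genes tested, 2 were called higher (10%, against 3.71% of all genes) and 0 lower, with a median of 0.11. ERDJ3A, a DnaJ partner of BiP, was at 23.7, 44.2 and 69.7 in green 2cpab, against 3.05, 3.44 and 5.42 in the wild type (log2 fold change 3.14 ± 0.36, adjusted p = 0.00104). DER1, of the degradation pathway, was at 20.4, 27.0 and 38.1 in green 2cpab, against 14.5, 14 and 15.4 in the wild type (log2 fold change 0.87 ± 0.18, adjusted p = 0.0166). The BiP chaperone BIP1 had 95.6, 122 and 102 in green 2cpab, against 67.6, 106 and 84.9 in the wild type, and was not called (log2 fold change 0.32 ± 0.15, adjusted p = 0.269). Other genes known for heat or protein stress were picked after their values were seen. Among them EGY3, a plastid protein related to proteases, had 20.4, 47.2 and 49.3 in green 2cpab, against 4.04, 3.42 and 3.96 in the wild type (log2 fold change 2.96 ± 0.31, adjusted p = 7.64e-04). PDX1.2, a pseudoenzyme that supports vitamin B6 synthesis in heat, had 143, 202 and 253 in green 2cpab, against 22.7, 31.7 and 30.2 in the wild type (log2 fold change 2.75 ± 0.44, adjusted p = 0.00461). TIN1 had 18.3, 24.6 and 41.8 in green 2cpab, against 1.52, 1.53 and 3.53 in the wild type (log2 fold change 3.17 ± 0.38, adjusted p = 0.00132).

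The iron-deficiency response also rose, and there the medians of the 3 green libraries were close. Of 28 genes tested, 16 were called higher (57.1%, against 3.71% of all genes) and 1 lower, with a median log2 fold change of 1.18. BHLH38, 1 of the 4 subgroup Ib bHLH factors that start the response, had 106, 109 and 105 in green 2cpab, against 9.87, 18.4 and 15.6 in the wild type (log2 fold change 2.83 ± 0.21, adjusted p = 1.90e-04). BHLH39 had 79.3, 85.3 and 81.0 in green 2cpab, against 8.71, 17.7 and 11.2 in the wild type (log2 fold change 2.67 ± 0.19, adjusted p = 1.90e-04). BHLH100 had 182, 216 and 201 in green 2cpab, against 14.3, 38.0 and 21.9 in the wild type (log2 fold change 3.07 ± 0.30, adjusted p = 6.51e-04). All 3 encode bHLH factors of the same subgroup, and so does the next. BHLH101 had 43.8, 37.9 and 37.0 in green 2cpab, against 3.26, 7.10 and 4.26 in the wild type (log2 fold change 2.84 ± 0.20, adjusted p = 1.65e-04). All 4 were several times higher in each green library than in any wild-type library. BTS, the iron-sensing ubiquitin ligase that restrains the response, had 82.5, 89.5 and 78.4 in green 2cpab, against 20.8, 27.5 and 24.7 in the wild type (log2 fold change 1.75 ± 0.11, adjusted p = 1.58e-04).

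The list also holds 3 short genes that the annotation leaves uncharacterized, and all rose. AT1G47400 stood at 66.8, 78.8 and 98.3 in green 2cpab, against 9.55, 16.3 and 21.9 in the wild type (log2 fold change 2.34 ± 0.28, adjusted p = 0.00131). AT1G47395 was at 124, 142 and 164 in green 2cpab, against 20.5, 29.4 and 38.5 in the wild type (log2 fold change 2.28 ± 0.22, adjusted p = 6.51e-04). AT2G30766 was at 39.7, 68.3 and 53.2 in green 2cpab, against 7.79, 14.9 and 12.5 in the wild type (log2 fold change 2.11 ± 0.25, adjusted p = 0.00129). AT1G47400 and AT1G47395 are similar neighbours on chromosome 1, so reads could be split between them. A pair of long non-coding RNAs beside them, picked after their values were seen, rose too. AT1G07367 (17388989 to 17389500, plus strand, 2503 bases past AT1G47400) had 38.2, 54.9 and 62.9 in green 2cpab, against 5.45, 7.53 and 8.37 in the wild type (log2 fold change 2.69 ± 0.19, adjusted p = 1.78e-04). AT1G07373 (17392374 to 17393026, minus strand) had 33.2, 20.7 and 56.9 in green 2cpab, against 2.69, 3.23 and 9.69 in the wild type (log2 fold change 2.67 ± 0.42, adjusted p = 0.00444). In both genes every green library lay above every wild-type library.

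Other genes of iron transport and reduction rose too, while the uptake genes IRT1, FRO2 and FIT did not pass the test. The libraries are of whole seedlings, so shoot and root were not measured apart. OPT3, which loads iron into the phloem, had 137, 169 and 121 in green 2cpab, against 38.4, 52.2 and 46.9 in the wild type (log2 fold change 1.61 ± 0.16, adjusted p = 6.51e-04). FRO3, a mitochondrial ferric reductase, had 82.4, 83.8 and 76.9 in green 2cpab, against 30.5, 37.7 and 34.8 in the wild type (log2 fold change 1.22 ± 0.09, adjusted p = 2.48e-04). NRAMP4, which exports iron from the vacuole, had 31.2, 31.8 and 28.6 in green 2cpab, against 12.3, 14.1 and 13.6 in the wild type (log2 fold change 1.14 ± 0.09, adjusted p = 3.15e-04). In these 3 genes the lowest green library lay above the highest wild-type one. NAS4, which makes the iron carrier nicotianamine, had 34.5, 24.1 and 25.0 in green 2cpab, against 6.85, 5.77 and 5.54 in the wild type (log2 fold change 2.02 ± 0.17, adjusted p = 3.15e-04). ZIF1, a vacuolar carrier, had 50.7, 51.5 and 53.7 in green 2cpab, against 15.5, 19.3 and 20.7 in the wild type (log2 fold change 1.45 ± 0.12, adjusted p = 3.15e-04). The genes of uptake at the root surface follow. IRT1, the root iron transporter, had 112, 93.8 and 116 in green 2cpab, against 43.6, 78.7 and 68.9 in the wild type, and was not called (log2 fold change 0.78 ± 0.26, adjusted p = 0.0994). FRO2, the root ferric reductase, had 58.7, 41.4 and 58.6 in green 2cpab, against 20.5, 36.9 and 34.9 in the wild type (log2 fold change 0.79 ± 0.30, adjusted p = 0.156). Their factor FIT had 8.69, 4.05 and 7.36 in green 2cpab, against 3.52, 5.91 and 4.59 in the wild type (log2 fold change 0.41 ± 0.25, adjusted p = 0.392). In these 3 uptake genes the green mean was higher, but only in IRT1 and FRO2 did the libraries not overlap. FRD3, which releases citrate into the xylem, was the 1 gene of the list called lower, at 5.61, 4.77 and 5.33 in green 2cpab, against 9.17, 9.95 and 9.55 in the wild type (log2 fold change -0.76 ± 0.09, adjusted p = 9.75e-04).

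Iron storage genes fell. Of 10 genes of storage and sufficiency, 9 were called lower (5.16% of all genes were) and 0 higher, with a median of -1.18. The ferritin FER1 had 97.4, 137 and 91.9 in green 2cpab, against 395, 320.4 and 283 in the wild type (log2 fold change -1.61 ± 0.16, adjusted p = 7.22e-04). FER3 had 43.2, 55.0 and 52.5 in green 2cpab, against 134, 92.7 and 125 in the wild type (log2 fold change -1.20 ± 0.15, adjusted p = 0.00183). FER4 had 13.8, 15.4 and 16.9 in green 2cpab, against 52.9, 36.7 and 39.1 in the wild type (log2 fold change -1.41 ± 0.14, adjusted p = 6.51e-04). All 3 encode ferritins, the shells in which iron is stored. NEET, an iron-sulfur protein, had 21.2, 39.6 and 28.6 in green 2cpab, against 139.7, 90.8 and 73.9 in the wild type (log2 fold change -1.73 ± 0.26, adjusted p = 0.00355). VTL5, of the vacuolar iron transporter-like family, had 22.3, 20.7 and 21.7 in green 2cpab, against 43.1, 65.5 and 50.6 in the wild type (log2 fold change -1.24 ± 0.15, adjusted p = 0.00141). Wild-type replicate 1 was the highest library for FER1, FER3, FER4 and NEET, and green libraries lay below all wild-type libraries in each of the 5 genes.

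Among abundant genes called lower were an iron superoxide dismutase, a ferredoxin and a photosystem I subunit. FSD1, the plastid iron superoxide dismutase, had 212, 249 and 259 in green 2cpab, against 720.4, 437 and 534 in the wild type (log2 fold change -1.20 ± 0.17, adjusted p = 0.00291). Its copper counterpart CSD2, which replaces it when copper is ample, was not called (log2 fold change 0.00 ± 0.16, adjusted p = 0.999), nor was the cytosolic CSD1 (log2 fold change 0.49 ± 0.23, adjusted p = 0.257). FED A, a ferredoxin that carries electrons from photosystem I, had 583, 909.9 and 860.1 in green 2cpab, against 2012, 1471 and 1352 in the wild type (log2 fold change -1.04 ± 0.21, adjusted p = 0.0144). The photosystem I subunit PSAF had 868, 1249 and 1166 in green 2cpab, against 2647, 2003 and 1714 in the wild type (log2 fold change -0.95 ± 0.19, adjusted p = 0.0159). Both calls were lost on the 6 libraries alone, with adjusted p = 0.0556 for FED A and 0.0736 for PSAF. HEMA1 and HEMA2, which encode the first committed enzyme of tetrapyrrole synthesis, were picked after their values were seen. HEMA1 had 59.6, 64.3 and 85.2 in green 2cpab, against 244, 131 and 147 in the wild type (log2 fold change -1.27 ± 0.22, adjusted p = 0.00656). HEMA2 had 16.6, 20.1 and 21.1 in green 2cpab, against 46.1, 42.9 and 43.8 in the wild type (log2 fold change -1.17 ± 0.11, adjusted p = 6.51e-04). Of 13 copper homeostasis genes, 3 were called lower (23.1%, against 5.16% of all genes) and 0 higher, with a median of -0.12. Those 3 were FSD1, ZIP2 (log2 fold change -0.72 ± 0.11, adjusted p = 0.00362) and FRO4 (log2 fold change -0.73 ± 0.16, adjusted p = 0.0194). For FRO4 the call held in 13 of 16 alternatives (highest adjusted p 0.0644), being lost under the fit on the 6 libraries alone and without green replicate 2 or 3. Without wild-type replicate 2 the count was 1 higher and 2 lower.

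Green replicate 1 was the lowest green library in 10, the middle one in 11 and the highest in 7 of the 28 deficiency genes. Medians from the wild-type mean were 1.21, 1.05 and 1.10 for iron deficiency and -1.21, -1.16 and -1.07 for storage, in green replicates 1 to 3. Each green library taken alone gave 14 deficiency genes called higher and 6 storage genes called lower. In albino seedlings 25 of 28 deficiency genes were called lower than in green ones (17.7% of all genes were), with a median difference of -2.23. BHLH38 averaged 5.01 ± 1.30 (SD, n = 3) in albino libraries, a log2 difference from green ones of -4.19 (adjusted p = 2.90e-06). Further genes with the same shape were picked after their values were seen. CGLD27 had 156, 204 and 192 in green 2cpab, against 54.0, 59.6 and 53.5 in the wild type (log2 fold change 1.70 ± 0.18, adjusted p = 7.64e-04). The defensin-like AT1G13609 had 128, 167 and 180.4 in green 2cpab, against 19.5, 27.6 and 41.0 in the wild type (log2 fold change 2.44 ± 0.29, adjusted p = 0.00119). AT1G24580, a RING-type protein, was among the clearest rises by the rule, with 33.1, 46.4 and 30.2 in green 2cpab, against 3.04, 3.12 and 2.08 in the wild type (log2 fold change 3.31 ± 0.18, adjusted p = 6.19e-05).

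**Figure D3:**
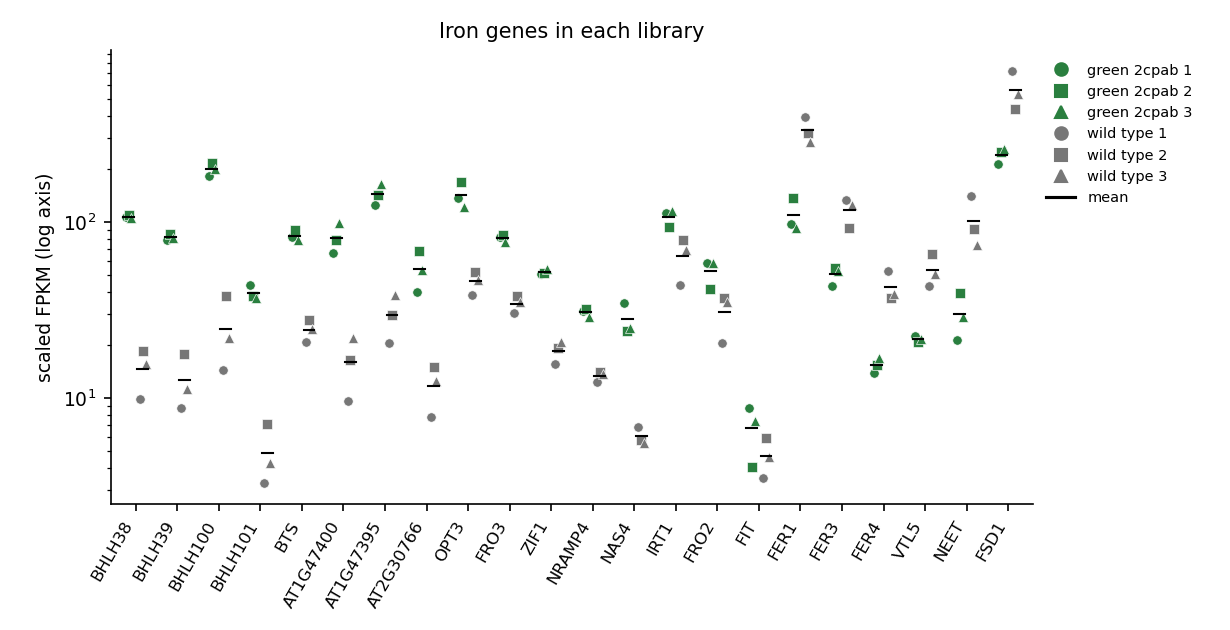
Scaled FPKM (y axis, log scale) of 22 iron genes in each library, with marker shape for the replicate and a line for the mean of each group, green 2cpab left of the wild type. The bHLH factors, BTS, AT1G47400 and transporters are higher in green 2cpab, such as BHLH38 at 105 to 109 against 9.87 to 18.4, FIT overlaps, and ferritins, NEET, VTL5 and FSD1 are lower.

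Other nutrient genes changed in smaller numbers. LSU2, a sulfur-starvation gene, was the clearest single rise in the genome by the moderated statistic, at 27.0, 23.4 and 23.4 in green 2cpab, against 2.00, 1.75 and 1.93 in the wild type (log2 fold change 3.14 ± 0.09, adjusted p = 1.85e-07). Its 3 green values lay within a narrow band, and albino minus green was 0.05 (adjusted p = 0.698). LSU1 had 9.53, 5.47 and 5.10 in green 2cpab, against 1.39, 2.05 and 0.836 in the wild type (log2 fold change 1.65 ± 0.23, adjusted p = 0.00273). LSU3, picked after its values were seen, had 12.2, 8.12 and 7.97 in green 2cpab, against 1.49, 1.31 and 1.50 in the wild type (log2 fold change 2.08 ± 0.14, adjusted p = 1.65e-04). Of 12 sulfur genes tested, 3 were called higher (LSU1, LSU2 and APR1 at 0.55) and 1 lower (SIR at -0.50), with a median of 0.21. These were 25.0% and 8.33% of the tested genes, against 3.71% and 5.16% of all genes. The counts were 2 and 0 without wild-type replicate 1 or green replicate 1, and 4 and 0 without green replicate 3. Of 9 phosphate starvation genes, 4 were called higher (44.4%, against 3.71% of all genes), with a median of 0.48. PAP17, an acid phosphatase, had 8.62, 5.71 and 8.14 in green 2cpab, against 3.15, 1.85 and 3.10 in the wild type (log2 fold change 1.20 ± 0.19, adjusted p = 0.00474), and the call held in all 20 alternatives. The other 3, SPX1, IPS1 and SRG3, were less stable, and the list fell to 1 call without green replicate 1 or green replicate 3, with no filter or on the 6 libraries alone, and to 2 calls under the TPM-like scaling or without 1 of wild-type replicates 2 and 3 or of albino replicates 2 and 3.

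Jasmonate genes gave the most falls of the 24 lists by count. Of 22 tested, 14 were called lower (5.16% of all genes were) and 1 higher, with a median log2 fold change of -0.97. CYP94C1, which inactivates the hormone, had 2.17, 3.34 and 6.78 in green 2cpab, against 16.3, 16.2 and 33.8 in the wild type (log2 fold change -2.20 ± 0.34, adjusted p = 0.00410), and the call held in all 20 alternatives. The synthesis enzyme LOX3 had 10.8, 18.8 and 24.5 in green 2cpab, against 56.9, 41.5 and 55.9 in the wild type (log2 fold change -1.52 ± 0.27, adjusted p = 0.00814). LOX4 had 14.2, 25.0 and 32.6 in green 2cpab, against 72.1, 56.4 and 76.2 in the wild type (log2 fold change -1.54 ± 0.29, adjusted p = 0.0104). Lipoxygenases add oxygen to the fatty acid that the hormone is made from. The repressor gene JAZ7 had 9.75, 11.2 and 26.8 in green 2cpab, against 65.8, 34.9 and 78.8 in the wild type (log2 fold change -1.91 ± 0.39, adjusted p = 0.0156), and the call held in 17 of 20 alternatives (highest adjusted p 0.0613), being lost without wild-type replicate 3 or green replicate 1 or 2. JAZ8 had 4.78, 6.86 and 15.9 in green 2cpab, against 29.7, 20.9 and 55.0 in the wild type (log2 fold change -1.87 ± 0.46, adjusted p = 0.0326), and the call held in 10 of 20 alternatives (highest adjusted p 0.194), being lost under the pseudocount of 0.1, the fit with no filter, the TPM-like scaling, the fit on the 6 libraries alone and the robust fit and without wild-type replicate 1 or 3, green replicate 1 or 2 or albino replicate 2. In all 5 genes the lowest green value was that of replicate 1 and the highest that of replicate 3. VSP2, a storage protein that jasmonate raises, was the 1 gene called higher, at 11.8, 11.3 and 13.6 in green 2cpab, against 4.72, 8.56 and 5.06 in the wild type (log2 fold change 0.93 ± 0.18, adjusted p = 0.0114). FAMT, a carboxyl methyltransferase, had 0.829, 1.90 and 3.61 in green 2cpab, against 7.40, 9.29 and 12.9 in the wild type (log2 fold change -1.87 ± 0.31, adjusted p = 0.00549).

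The jasmonate count depended on single libraries more than the heat and iron counts did. It was 8 lower with no filter, on the 6 libraries alone or without green replicate 2, 9 without green replicate 1, and 5 without wild-type replicate 3. Medians from the wild-type mean were -1.42, -0.86 and -0.58 in green replicates 1 to 3, and replicate 1 was the lowest green library in 19 of 22 genes. Summed levels of the list were 424, 587 and 690.2 in green 2cpab libraries, against 941, 904 and 1150.2 in wild-type libraries.

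Touch and rapid stress genes, which rise within minutes of handling, wounding or microbial signals, gave fewer calls than the jasmonate list. Of 22 tested, 5 were called lower (22.7%, against 5.16% of all genes) and 0 higher, with a median of -0.59, and 17 were not called. CML38, a calmodulin-like protein, had 35.6, 46.0 and 64.5 in green 2cpab, against 201, 159 and 196 in the wild type (log2 fold change -1.94 ± 0.30, adjusted p = 0.00391). TCH4, a cell wall enzyme raised by touch, had 216, 249 and 332 in green 2cpab, against 567, 469.6 and 485 in the wild type (log2 fold change -0.95 ± 0.18, adjusted p = 0.00959). WRKY40, a repressor of immune responses, had 104, 161 and 199 in green 2cpab, against 376, 349.9 and 400.3 in the wild type (log2 fold change -1.32 ± 0.30, adjusted p = 0.0243). For WRKY40 the call held in 15 of 20 alternatives (highest adjusted p 0.0777), being lost under the fit with no filter and without wild-type replicate 1 or 3 or green replicate 1 or 2. The count was 2 lower without wild-type replicate 1, without green replicate 1 or with no filter, 3 without wild-type replicate 2, wild-type replicate 3 or green replicate 2, and 9 without albino replicate 3 or with the replicate number as a block. In albino seedlings 19 of the 22 genes were called lower than in green ones, against 17.7% of all genes.

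WRKY factors, calcium-sensing proteins and protein kinases were counted next. These families were taken from annotation words after the gene values had been seen and carry no test. Of 49 WRKY factors 10 were called lower and 0 higher, 20.4% against 5.16% of all genes, with a median of -0.03. Of 130 calmodulin-like and other calcium-sensing proteins 25 were called lower (19.2%) and 4 higher, with a median of -0.16. The lower count was 15 without green replicate 1 and 11 without wild-type replicate 3. Of 651 protein kinases 88 were called lower (13.5%) and 6 higher, with a median of -0.08; 49 to 56 were called lower without wild-type replicate 3, without green replicate 2, on the 6 libraries alone or under the TPM-like scaling. WRKY18 had 28.0, 33.5 and 49.7 in green 2cpab, against 101, 86.5 and 128 in the wild type (log2 fold change -1.50 ± 0.22, adjusted p = 0.00303). CPK28, a calcium-dependent kinase that dampens immune signals, had 26.8, 40.0 and 41.7 in green 2cpab, against 94.5, 81.7 and 101 in the wild type (log2 fold change -1.35 ± 0.17, adjusted p = 0.00151). SOBIR1, a co-receptor of immune receptors, had 54.1, 61.9 and 59.9 in green 2cpab, against 146, 111 and 102 in the wild type (log2 fold change -1.0 ± 0.18, adjusted p = 0.00941). In these 3 genes, picked after their values were seen, no green library reached the wild-type range.

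Salicylate-linked defence genes gave as many rises as falls. Of 13 genes tested, 2 were called higher and 2 lower (15.4% each, against 3.71% and 5.16% of all genes), with a median of -0.03. PAD4, a regulator of defence, was lower at 5.75, 6.06 and 5.54 in green 2cpab, against 9.83, 9.02 and 10.2 in the wild type (log2 fold change -0.65 ± 0.12, adjusted p = 0.0109). The salicylate receptor gene NPR1 was lower at 10.7, 10.2 and 10.8 in green 2cpab, against 14.3, 15.4 and 15.6 in the wild type (log2 fold change -0.48 ± 0.08, adjusted p = 0.00577). PR2, a glucanase of defence, was listed at 0 in all wild-type libraries and at 2.60, 1.01 and 2.87 in green 2cpab libraries (adjusted p = 0.0136). AIG1, raised by bacterial recognition, had 4.39, 0.926 and 2.96 in green 2cpab, against 0, 0 and 0.0530 in the wild type (log2 fold change 1.76 ± 0.32, adjusted p = 0.00935). Neither rise was called with a pseudocount of 5 (adjusted p = 0.185 for PR2 and 0.0755 for AIG1). NDR1, an anchor protein of resistance signalling, was among the 14 largest falls, at 6.56, 5.84 and 8.01 in green 2cpab, against 32.9, 19.7 and 24.7 in the wild type (log2 fold change -1.76 ± 0.18, adjusted p = 7.22e-04). PP2-A5, a phloem lectin, had 7.96, 13.5 and 11.6 in green 2cpab, against 46.9, 38.0 and 53.8 in the wild type (log2 fold change -1.99 ± 0.18, adjusted p = 4.62e-04). AT1G07520, a GRAS-family factor, was listed at 0 in green replicates 1 and 2 and at 0.0168 in green replicate 3, against 6.58, 4.89 and 3.36 in wild-type libraries (adjusted p = 3.15e-04).

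Markers of cell types were read to see which tissues the seedlings held. Of 18 root, 11 stomatal and 10 mesophyll genes tested, none was called by limma in either direction, against 8.87% of all genes. Their median log2 fold changes were -0.31, -0.05 and -0.14. Fold changes were negative in 16 root, 6 stomatal and 8 mesophyll genes, and in 8885 of the 19731 genes tested. Without wild-type replicate 1 there were 5 root genes called lower. Summed levels of the root list were 1849, 1337 and 1641 in green 2cpab libraries, against 1630.4, 1740.1 and 1697 in wild-type libraries, and those of the stomatal list 31.1, 31.9 and 30.0, against 35.4, 34.7 and 29.6. The mesophyll list summed to 39881, 67363 and 53281 in green 2cpab libraries, against 61498, 58070.5 and 47471 in wild-type libraries. Green replicate 1 was the lowest green library in 10 of 10 mesophyll genes, with a median of -0.58 from the wild-type mean against 0.30 and -0.08 in replicates 2 and 3. Of 14 seed storage and oil body genes, 9 were called higher (64.3%, against 3.71% of all genes). Their list summed to 123, 147 and 142 in green 2cpab libraries, against 14.6, 42.6 and 20.5 in wild-type libraries. The count of seed genes called higher was 4 without wild-type replicate 3 or green replicate 2 and 5 without green replicate 1. SESA5, a seed albumin, had 5.44, 7.51 and 5.55 in green 2cpab, against 0.346, 0.532 and 0.227 in the wild type (log2 fold change 2.38 ± 0.21, adjusted p = 4.20e-04). AT3G02480, a late embryogenesis abundant protein outside the list, had 691, 1302 and 881 in green 2cpab, against 95.2, 328 and 127 in the wild type (log2 fold change 2.54 ± 0.40, adjusted p = 0.00444). The part of these tissues in the heat, iron and jasmonate results was not tested.

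**Figure D4:**
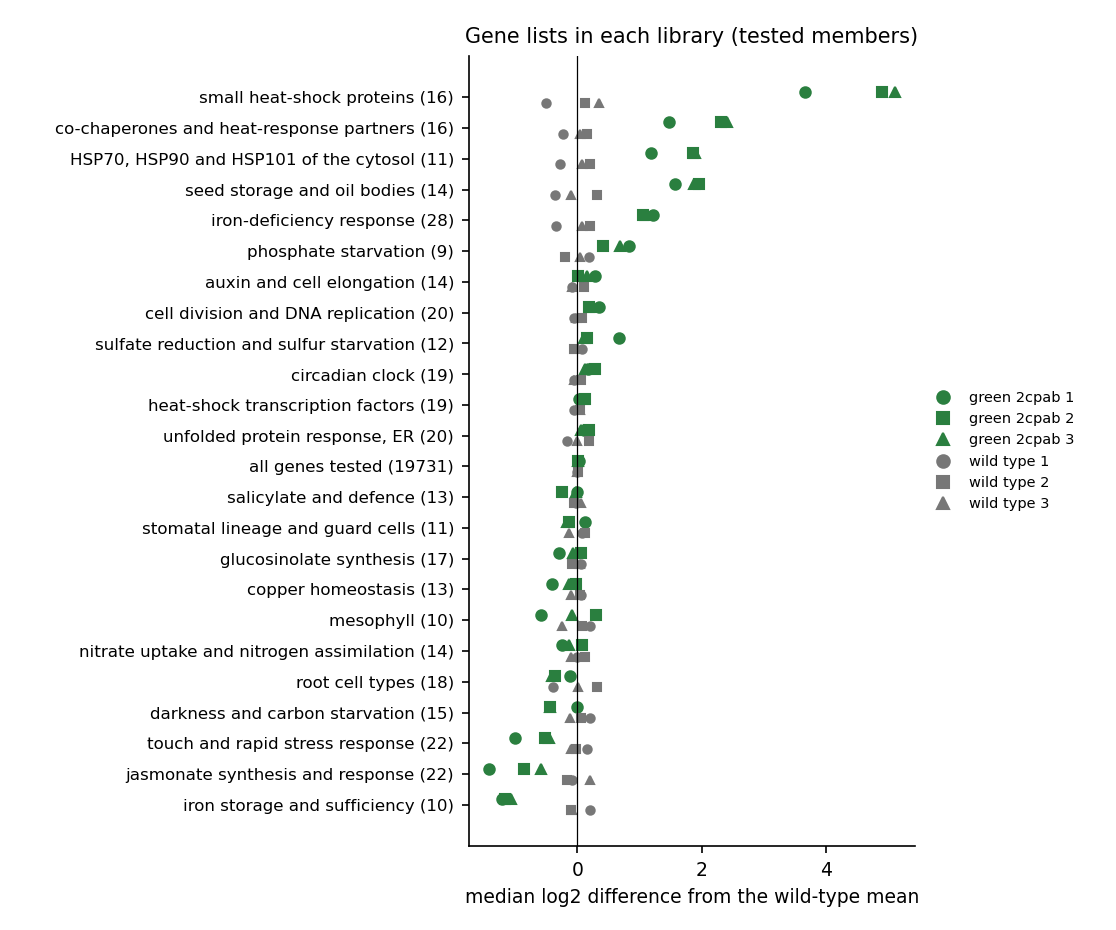
Median log2 distance of each gene list from its wild-type mean (x axis) in each of the 6 libraries, with marker shape for the replicate and colour for green 2cpab or wild type. In heat lists green replicate 1 is nearest to 0, in the iron lists the green replicates coincide, with medians of 1.21, 1.05 and 1.10 for deficiency, and in the jasmonate list replicate 1 is farthest below 0, at -1.42.

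Each green library was also read alone against the wild-type range. Genes at least 2-fold above the highest wild-type library numbered 221, 256 and 234 in green replicates 1, 2 and 3, and those at least 2-fold below the lowest numbered 233, 173 and 88. For scale, a wild-type library lay 2-fold above both others in 31, 53 and 68 genes and 2-fold below both in 38, 95 and 36. Replicate 1 was the lowest green library in 46.0% of genes called higher and in 49.2% of genes called lower, against 32.7% of all genes tested. Medians from the wild-type mean over the genes called higher were 0.78, 0.86 and 0.77, and over those called lower -0.75, -0.72 and -0.64. Pearson correlations between green libraries over the genes tested were 0.980 for replicates 1 and 2 and 0.982 for each other pair, across genes, which are not independent replicates. The same correlations with albino replicates 1 to 3 were 0.937, 0.931 and 0.936 for green replicate 1. They were 0.908, 0.900 and 0.911 for green replicate 2 and 0.904, 0.898 and 0.908 for green replicate 3.

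Genes in which green replicate 1 stood farthest from both other green libraries were chosen by that distance and are given as a description. Below them, beside 2CPA, 2CPB and AT3G05945, were 3 more. HSP18.2 had 23.3, 94.9 and 75.3 in green 2cpab, against 1.96, 3.15 and 3.11 in the wild type. The long non-coding RNA AT1G07737 had 3.76, 37.9 and 26.8 in green 2cpab, against 24.9, 18.5 and 23.6 in the wild type. AT5G67490, a succinate dehydrogenase assembly factor, had 2.43, 37.9 and 21.9 in green 2cpab, against 0.0718, 40.7 and 1.52 in the wild type. A pair of root myrosinases and a lectin lay above the other green libraries. BGLU34 had 19.7, 6.16 and 3.25 in green 2cpab, against 17.2, 31.5 and 24.7 in the wild type. BGLU35 had 19.4, 6.0 and 4.10 in green 2cpab, against 17.3, 30.8 and 21.4 in the wild type. The lectin AT1G52050 had 16.1, 6.07 and 5.17 in green 2cpab, against 16.3, 23.0 and 23.3 in the wild type. For these 3 genes replicate 1 was the green library nearest to the wild type. AT2G04050, a MATE carrier, had 37.9, 14.9 and 13.3 in green 2cpab, against 8.89, 38.2 and 17.3 in the wild type. Of AT5G67490, 719 bases overlap a gene on the other strand. ICL, the isocitrate lyase of seed oil use, had 81.7, 34.5 and 23.6 in green 2cpab, against 10.2, 12 and 14.3 in the wild type and was called higher (log2 fold change 1.67 ± 0.35, adjusted p = 0.0175), and the call held in 18 of 20 alternatives (highest adjusted p 0.0548), being lost under the fit on the 6 libraries alone and without wild-type replicate 1.

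Genes of darkness and carbon starvation split the green libraries too. Of 15 tested, 2 were called lower (13.3%, against 5.16% of all genes), with a median of -0.35. They were EXL2 (log2 fold change -0.83 ± 0.12, adjusted p = 0.00323) and BZIP1 (log2 fold change -0.55 ± 0.12, adjusted p = 0.0187). For BZIP1 the call held in 16 of 20 alternatives (highest adjusted p 0.0625), being lost under the TPM-like scaling and without wild-type replicate 2 or green replicate 2 or 3. Here green replicate 1 was the highest green library in 14 of 15. SEN1, a marker of dark leaves, had 46.9, 26.3 and 18.1 in green 2cpab, against 55.5, 50.2 and 39.4 in the wild type. The asparagine synthetase gene ASN1 had 29.2, 16.2 and 12.7 in green 2cpab, against 48.6, 37.7 and 25.9 in the wild type. Medians from the wild-type mean were -0.00, -0.44 and -0.44 in green replicates 1 to 3. Without green replicate 1, 7 of the 15 were called lower, and 1 was called under the TPM-like scaling or without wild-type replicate 2, green replicate 2 or green replicate 3.

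**Figure D5:**
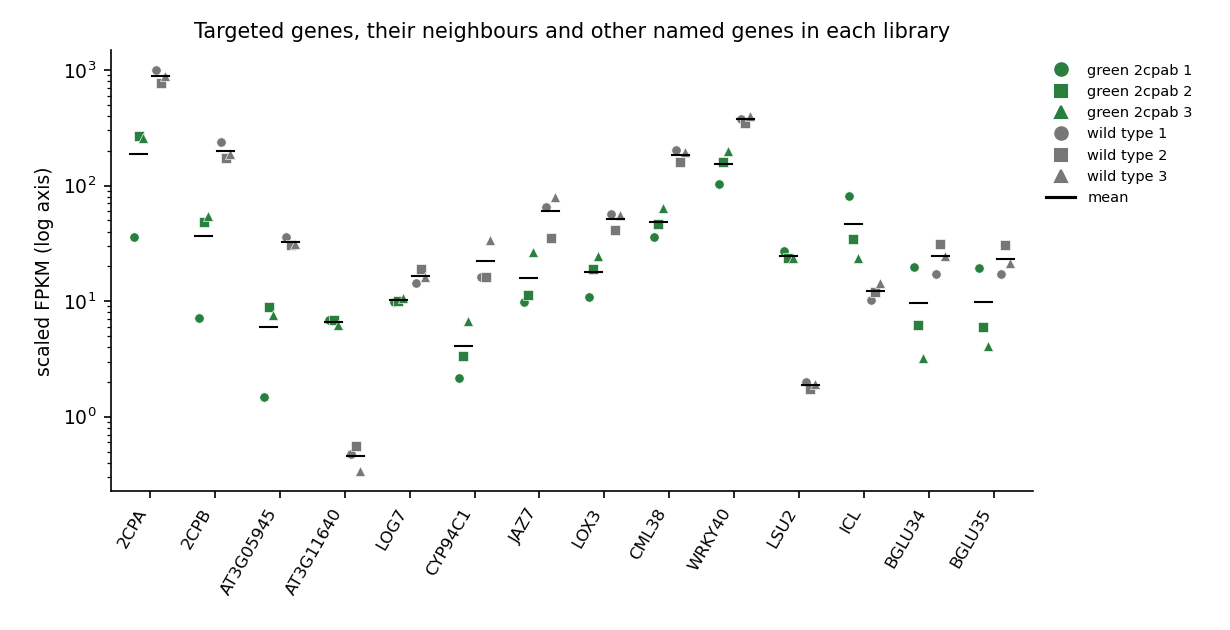
Scaled FPKM (y axis, log scale) of the targeted genes, neighbouring genes and other named genes in each library, with marker shape for the replicate and a line for the mean of each group, green 2cpab left of the wild type. Green replicate 1 is lowest for 2CPA (35.8), 2CPB (7.21), AT3G05945 and the jasmonate genes, highest for ICL, BGLU34 and BGLU35, and level with the others for AT3G11640 and LSU2.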

How the data were processed

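The authors deposited 1 table of log2 values for 32833 genes, 9 libraries in 3 groups. The submitters' processing notes name FastQC, HISAT2, StringTie and the TAIR10 genome, without versions. As the values themselves show, the authors' unit is log2(scaled FPKM + 1), with all libraries sharing 1 value of the 75th percentile. The plan had assumed unlogged FPKM, so no further log was taken. Of the genes, 6331 were at 0 everywhere, and 32548 matched the TAIR10.1 annotation. The 19731 genes that reached a scaled FPKM of 1 in 3 libraries were fitted with limma 3.58.1 (R 4.3.3). The fit used all 9 libraries, 1 mean for each group, trended variance moderation and Benjamini-Hochberg adjustment over all genes tested. Tables and figures were made with Python 3.11.15, pandas 2.3.3 and matplotlib 3.10.9, and sequences were compared with blastn 2.17.0.

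The comparison, the 24 gene lists (384 genes) and the naming rule were chosen with earlier results of these data known. The rule names the targeted genes, the 14 largest called rises and falls with a group mean of at least 5, the 6 of each direction with the largest moderated t or mean, up to 3 called members per list, or else the 2 of highest mean, the 6 genes with green replicate 1 farthest above or below, and the 5 neighbours on each side of the targeted genes. Genes named as list examples beyond it, or said to be picked, were chosen after their values were seen. A gene that the rule names is not reported here. The fit was tested on simulated data. Replicate numbers are shared between groups, and whether they mark a shared batch was not tested. Correlations of same-numbered deviations from the group means were -0.078, 0.281 and 0.267 for replicates 1, 2 and 3. Green replicate 2 with wild-type replicate 3 gave -0.275, and green replicate 3 with wild-type replicate 2 gave -0.355. Alternatives changed the pseudocount, filter, scaling, fit, block and each library.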

Additional observations from a re-analysis of the deposited data

How the results depend on the processing

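The 733 genes higher and 1018 lower became 431 and 640 on the 6 libraries alone, 266 and 225 with a required 2-fold change, and 424 to 702 and 606 to 955 when 1 library was left out. With green replicate 1, 2 or 3 as the only green library, set against the spread of the other groups, 277, 336 and 253 genes were higher and 460, 406 and 176 lower (replicates 2 and 3 alone were added after seeing the data). With the replicate number as a block the counts were 752 and 1032. Green replicate 1 did not correlate best with wild-type replicate 1, while green replicates 2 and 3 did with the wild-type library of their own number. The other settings gave 598 to 740 higher and 732 to 1070 lower. Among the genes that the naming rule picks, 97 were called between albino and green mutants, or 58 with green replicate 1 alone. For scale, 36.1% of all genes tested were called in that comparison in the main fit. The rule picks many genes by their green values, so whether 97 is more than their share was not tested. Genes picked outside the rule were not counted. The share of 3-unit elements among genes called higher was 2.20%, or 1.09% with green replicate 1 alone.

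Genes 2-fold outside the wild-type range depended on the pseudocount. With 0.1, 376 were above in green replicate 1, 365 below in replicate 2 and 197 below in replicate 3. With 5, there were 121 above and 132 below in replicate 1, 156 and 56 in replicate 2, and 145 and 27 in replicate 3. Under the TPM-like scaling 351 were above in replicate 1 and 281 below in replicate 2. Of 3687 recomputed values for named genes, 3343 stayed on their side of the threshold, 334 lost the call, 10 gained it and 0 changed sign while called. The cause of these shifts was not tested. Absolute depth is unknown, and 3 libraries per group limit the precision.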

Other observations

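Of 20 genes of cell division and DNA replication, 2 were called higher (10%, against 3.71% of all genes) and 0 lower, with a median log2 fold change of 0.23. TSO2, a ribonucleotide reductase subunit, had 88.8, 89.2 and 80.9 in green 2cpab, against 35.3, 46.5 and 38.3 in the wild type (log2 fold change 1.10 ± 0.11, adjusted p = 6.61e-04). PCNA1, the replication clamp, had 19.7, 19.5 and 19.4 in green 2cpab, against 13.1, 16.2 and 13.1 in the wild type (log2 fold change 0.45 ± 0.10, adjusted p = 0.0219). Only 1 of them was called without wild-type replicate 1, wild-type replicate 3, green replicate 1 or green replicate 3, or on the 6 libraries alone. Of 14 auxin and elongation genes, 1 was called lower (7.14%, against 5.16% of all genes). It was IAA19, at 8.68, 12.8 and 9.89 in green 2cpab, against 17.7, 24.1 and 17.4 in the wild type (log2 fold change -0.86 ± 0.15, adjusted p = 0.00787). In this list 2 were called lower without wild-type replicate 1 or green replicate 1, under the median-of-ratios scaling or with the stricter filter. Of 51 SAUR-like auxin genes, 11 were called higher (21.6% against 3.71% of all genes) and 1 lower, with a median of 0.25. The higher count was 6 without wild-type replicate 3 or green replicate 2 and with the stricter filter, and 7 on the 6 libraries alone. SAUR genes are close paralogs in tandem rows, so their counts may share reads. Of 319 ribosomal protein genes, 2 were called higher and 0 lower (0.627% in either direction, against 8.87% of all genes). Of 202 pentatricopeptide repeat genes, which act on organelle RNA, none was called by limma in either direction, against the same 8.87%. In the pentatricopeptide family 1 was called higher without wild-type replicate 1 or green replicate 3 and 2 lower without wild-type replicate 2.

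Clock, nitrate and glucosinolate lists had 10.5%, 21.4% and 23.5% of their tested genes called in either direction, against 8.87% of all genes. Of 19 clock genes 1 was called higher and 1 lower, with a median of 0.21. These were PRR7, at 18.2, 19.1 and 19.6 in green 2cpab, against 14.5, 15.5 and 14.9 in the wild type (log2 fold change 0.32 ± 0.09, adjusted p = 0.0461), and CHE, at 30.0, 37.6 and 31.6 in green 2cpab, against 61.3, 48.6 and 41.4 in the wild type (log2 fold change -0.58 ± 0.14, adjusted p = 0.0296). The PRR7 call held in 5 and the CHE call in 13 of 20 alternatives. Of 14 nitrate genes 3 were called lower with a median of -0.19, HRS1, a nitrate-responsive repressor (log2 fold change -0.62 ± 0.09, adjusted p = 0.00303), and the nitrogen enzymes GLT1 (log2 fold change -0.57 ± 0.12, adjusted p = 0.0191) and GDH2 (log2 fold change -0.56 ± 0.15, adjusted p = 0.0484). The GLT1 call held in 17 and the GDH2 call in 8 of 20 alternatives. That count was 1 without green replicate 2 or green replicate 3. Of 17 glucosinolate genes 3 were called lower and 1 higher with a median of -0.11, SOT16 (log2 fold change -0.61 ± 0.09, adjusted p = 0.00359), UGT74B1 (log2 fold change -0.49 ± 0.09, adjusted p = 0.00701) and MAM3 (log2 fold change -0.48 ± 0.13, adjusted p = 0.0428) on the lower side and the regulator MYB28 (log2 fold change 0.50 ± 0.12, adjusted p = 0.0359) on the higher. The MAM3 call held in 10 and the MYB28 call in 11 of 20 alternatives. Among abscisic acid and gibberellin genes picked after their values were seen, CYP707A3, which breaks down abscisic acid, had 39.4, 38.7 and 58.2 in green 2cpab, against 147, 108 and 117 in the wild type (log2 fold change -1.44 ± 0.23, adjusted p = 0.00491). GA2OX6, which inactivates gibberellin, had 12.5, 13.7 and 18.5 in green 2cpab, against 37.5, 51.9 and 47.4 in the wild type (log2 fold change -1.56 ± 0.19, adjusted p = 0.00132). NAC13, a factor of mitochondrial stress, had 24.1, 22.1 and 17.5 in green 2cpab, against 4.69, 7.19 and 6.57 in the wild type (log2 fold change 1.64 ± 0.15, adjusted p = 6.21e-04).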
